A study of Mus musculus with 2 samples.

Results

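The genes described here encode smooth muscle contractile proteins of the kind that myofibroblasts also make: Acta2, Actg2, Tagln, Cnn1, Cnn2, Myl9, Myh11, Tpm1, Tpm2 and Cald1. These 10 genes were chosen by name, and every probe set whose annotation gives 1 of them alone was taken, which made 23 of the 45037 probe sets analysed. The RNA came from mouse retinal pigment epithelium (RPE), a pigmented monolayer next to the photoreceptors, held as 2 primary cultures and hybridised to 1 oligonucleotide array each. The untreated culture was grown for 14 days in DMEM with 20% fetal bovine serum and received no cytokine. The second culture was grown in the same way and received 100 U/ml of interferon gamma (IFNg), a lymphocyte cytokine, over 24 h. Both were moved to serum-free medium overnight before RNA extraction and were described as 95% cytokeratin-positive. The labels give neither the strain and age of the mice nor the number of animals behind a culture.

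Neither group had a replicate, so no difference below has a test or a p-value, and the words higher and lower describe these 2 arrays. The deposited values are probe-set signals on a linear scale, with medians of 20.1 (untreated) and 20.8 (IFNg). The pooled median, 20.4, served as a floor for dim signals, and a log2 ratio (IFNg over untreated) is given where 1 or both arrays lay above that floor. Within a gene, the log2 ratios of its probe sets had an SD of 0.44 over 4419 genes, of 0.33 where the mean log2 signal lay over the pooled 75th percentile (2291 genes) and of 0.15 where both signals were over 1000 (203 genes). This spread between probe sets, which can also read different transcripts of a gene, does not stand in for a second culture. In a whole culture, fewer cells of a type and less RNA per cell cannot be told apart.

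Smooth muscle cells and myofibroblasts contract by sliding myosin along actin filaments built from the alpha and gamma smooth muscle actins. Tropomyosins, calponins, caldesmon and transgelin lie along those filaments, and phosphorylation of the regulatory light chain sets myosin activity. Many of these genes are switched on by serum response factor (SRF), which binds CArG boxes with myocardin-family coactivators, and by TGF-beta. RPE cells that leave the epithelial state in culture or in fibrotic retinal disease are known to take up alpha smooth muscle actin.

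The windows around the RefSeq starts of 4 of the genes (build GRCm38.p6, 250 bases before to 50 after the start) are shown because CArG boxes are the textbook element of this family. They are those of the actin, light-chain and calponin genes with log2 ratios from -1.82 to -0.04, and Cald1, the gene with higher signals, is not among them. Capitals mark each stretch that matches the CArG box with at most 1 other letter. Acta2 is at chr19:34255324-34255623 on the minus strand, Myl9 at chr2:156775214-156775513, Cnn1 at chr9:22099003-22099302 and Cnn2 at chr10:79988350-79988649, the last 3 on the plus strand.
Acta2: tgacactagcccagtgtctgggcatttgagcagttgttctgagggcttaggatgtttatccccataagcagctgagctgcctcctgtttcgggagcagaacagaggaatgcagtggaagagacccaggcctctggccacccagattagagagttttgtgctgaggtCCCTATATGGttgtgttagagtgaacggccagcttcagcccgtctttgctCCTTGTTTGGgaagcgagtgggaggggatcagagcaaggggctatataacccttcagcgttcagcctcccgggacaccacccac
Myl9: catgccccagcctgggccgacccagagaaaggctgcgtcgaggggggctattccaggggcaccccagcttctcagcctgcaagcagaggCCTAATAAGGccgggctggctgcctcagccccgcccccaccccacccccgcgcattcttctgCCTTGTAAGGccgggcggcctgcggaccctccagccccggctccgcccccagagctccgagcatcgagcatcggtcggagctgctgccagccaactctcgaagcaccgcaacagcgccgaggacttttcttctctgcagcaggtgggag
Cnn1: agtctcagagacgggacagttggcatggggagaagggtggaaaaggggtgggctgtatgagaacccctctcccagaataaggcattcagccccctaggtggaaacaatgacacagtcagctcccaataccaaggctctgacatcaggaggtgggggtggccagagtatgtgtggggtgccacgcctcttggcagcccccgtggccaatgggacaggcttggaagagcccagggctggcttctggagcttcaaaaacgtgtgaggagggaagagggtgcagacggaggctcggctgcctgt
Cnn2: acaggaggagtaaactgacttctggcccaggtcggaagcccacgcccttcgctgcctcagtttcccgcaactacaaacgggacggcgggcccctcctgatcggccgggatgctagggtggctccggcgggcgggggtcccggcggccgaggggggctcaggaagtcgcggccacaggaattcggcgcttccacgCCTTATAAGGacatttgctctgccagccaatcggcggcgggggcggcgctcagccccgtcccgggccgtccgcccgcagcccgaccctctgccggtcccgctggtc

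Windows were held for 7 of the genes, 8 windows in all with both starts of Cald1. The full CArG box, which reads the same on both strands, was found in the Myl9 window (first base 161 bases before the start) and the Cnn2 window (56 bases before), against 1.63% of 32851 RefSeq windows of this length. With 1 other letter allowed, 5 of the 8 windows held a match, those of Acta2 (84 and 34 bases before the start), Myl9, Cnn2, Tpm1 and 1 of Cald1, against 21.1% of all windows. The MCAT element CATTCC, bound by TEAD factors, was found on either strand in the windows of Acta2, Tpm1 and Cald1, against 14.7% of all. The interferon elements TTCNNNGAA (GAS) and GAAANNGAAA (ISRE), searched on both strands, were found in 0 of the 8 windows, against 8.3% and 3.44% of all. Such matches describe letters in a window and are not measured binding sites.

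Most contractile genes had lower signals on the array of the IFNg culture, by unequal amounts, and Cald1 alone had higher ones. Of the 23 probe sets, 18 were above the floor, all of them on both arrays, and 5 were not. Over all measured probe sets, 52.7% were lower with IFNg. Among the 18 contractile ones, 14 were lower and 4 were higher, the 4 all belonging to Cald1. Only 2 were at least 2-fold lower (Cnn1 and a dim probe set of Acta2), beside 4.42% of 25831 measured probe sets, and 1 was at least 2-fold higher (a dim probe set of Cald1), beside 9.66%. With counts this small and several probe sets sharing a gene, these shares are given only as a background. The median log2 ratio of the 18 was -0.26, where that of all measured probe sets was -0.04.

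**Figure D1:**
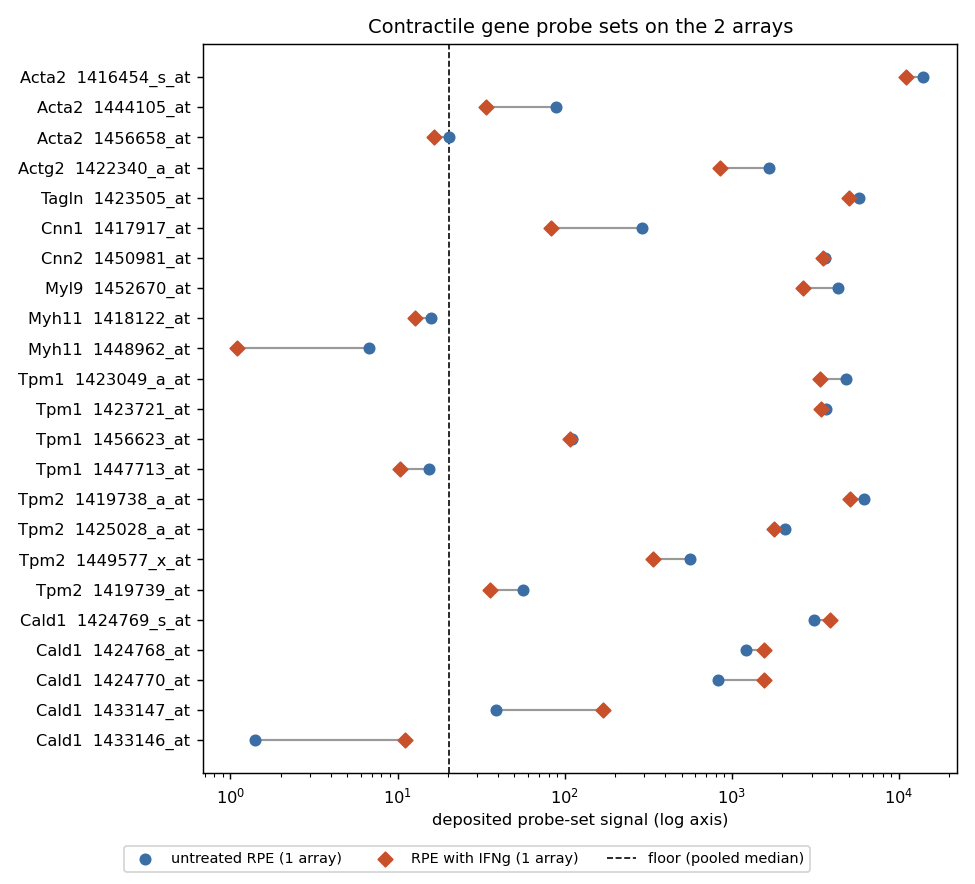
Deposited signal (log axis) of each of the 23 contractile gene probe sets on the untreated array (circles) and the IFNg array (diamonds), with the floor of 20.4 as a dashed line. The diamonds lie left of the circles for every gene but Cald1, and both Myh11 probe sets lie below the floor.

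Bright probe sets as a class leaned the same way, so the members were also set beside them. Of 1306 probe sets with both signals over 1000, 70% were lower with IFNg and the median was -0.17, with a 5th percentile of -0.62 and a 95th of 0.56. The 10 contractile probe sets in that range had a median of -0.21, and 8 of the 10 were lower. Of 11198 probe sets with a mean log2 signal over the pooled 75th percentile, 59% were lower with IFNg and the median was -0.14. At least 2-fold lower were 3.21% of them, and at least 2-fold higher 9.53%. The 15 contractile probe sets among them had a median of -0.22, and 12 of the 15 were lower, with 1 at least 2-fold lower and 0 at least 2-fold higher. As a group, the bright members had medians close to those of bright probe sets at large. Single genes lay further out, and whether more did so than among bright probe sets at large was not tested.

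Of the actins, Acta2 encodes alpha smooth muscle actin, the usual marker of a myofibroblast. Its probe set 1416454_s_at gave signals of 13960 and 11076, a log2 ratio of -0.33 (1.26-fold lower with IFNg). This signal was close to the highest value on either array (14896 and 14656), and whether such signals are compressed cannot be read from the file. The ID marks sequence that can be shared with other transcripts, and the actin coding sequences are near-identical, so which actins it reads is uncertain. A second Acta2 probe set, 1444105_at, went from 89.3 to 33.6, a log2 ratio of -1.41 (2.66-fold lower). The 2 values differ by 1.08 log2 units. With the floor at the pooled 75th percentile, 86.6, the dim probe set keeps almost no range and its ratio becomes a bound of -0.04. The remaining one, 1456658_at, had 20.4, equal to the floor, and 16.6.

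Actg2, which encodes the gamma smooth muscle actin of visceral and vascular muscle, had signals of 1664 and 850 on its only probe set. It was 1.96-fold lower with IFNg (log2 ratio -0.97), just short of the 2-fold line. Scaled to a common 75th percentile it passed that line, at -1.05, and with a loess curve removed it was at -0.82. The value of -0.97 lies just below -0.90, the 5th percentile of probe sets over the pooled 75th percentile. The cytoskeletal actins of every cell had log2 ratios of -0.03 for Actb (10931 and 10722) and -0.23 for Actg1 (10889 and 9297). Another Actb probe set was at 0.60. The Actb and Actg1 signals printed were far above that of Actg2, in a range where compression cannot be read from the file. The Actg1 ID also marks sequence that can be shared, so which actins it reads is uncertain. Whether smooth muscle and cytoskeletal actins differed was therefore not tested.

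Among the myosin genes, Myl9 encodes the regulatory light chain of smooth muscle myosin, the site of the phosphorylation that starts contraction. Its probe set had signals of 4332 and 2662, a log2 ratio of -0.70, or 61.4% of the untreated signal. That was below the 5th percentile of probe sets with both signals over 1000. Myl12a, a light-chain gene of nonmuscle cells, had 5109 and 4340 (-0.24, with another probe set at -0.68). Myh11, the heavy chain that marks differentiated smooth muscle, was under the floor on both arrays by both probe sets, with signals of 15.8 and 12.7 for one and 6.7 and 1.1 for the other. No ratio is given for it, and the cultures carried the actin and light-chain signals without a measurable Myh11 signal.

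The calponin genes gave unlike log2 ratios from probe sets of unlike brightness, and the part of signal level in this was not tested. Cnn1, basic or h1 calponin, is an actin-binding inhibitor of myosin ATPase restricted largely to smooth muscle, and it had the lowest ratio of all members. Its single probe set gave 291.4 and 82.8, a log2 ratio of -1.82 (3.52-fold lower), which leaves 28.4% of the untreated signal. The ratio ranged from -1.89 to -1.64 over the processing alternatives. Its value of -1.75 at the 75th-percentile floor, 86.6, is a bound. Cnn2, the h2 calponin found in many nonmuscle cells, had 3632 and 3530, a log2 ratio of -0.04 (from -0.12 to 0.08, above 0 only with a loess curve removed). Cnn3, the acidic calponin, had 5404 and 6939 (0.36), with other probe sets from -0.51 to 0.31. Of the windows printed above, the one for Cnn2 held a full CArG box and the one for Cnn1 held no match at either stringency. Sequence of either gene outside its window was not searched, so the absence of a match applies to the Cnn1 window only. A link between CArG boxes and the calponin ratios was not tested.

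Tagln encodes transgelin (SM22 alpha), a calponin-related actin-bundling protein and an early marker of smooth muscle differentiation. Its signals were 5781 and 5027, a log2 ratio of -0.20, close to the median of bright probe sets. Transgelin and Cnn1, both used as smooth muscle markers, thus gave ratios of very different size on the same arrays. The Cnn1 probe set was also far dimmer (291.4 and 82.8), and ratios spread less among brighter probe sets. Their 5th percentile was -0.90 over the pooled 75th percentile and -0.62 with both signals over 1000. The part of signal level in the difference between the 2 genes was not tested.

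Tropomyosins wrap along actin and regulate the access of myosin, and Tpm1 and Tpm2 each make muscle and nonmuscle splice forms. The brightest Tpm1 probe set, 1423049_a_at, had 4835 and 3385, a log2 ratio of -0.51. A second, 1423721_at, had 3679 and 3409 (-0.11), and a dim one, 1456623_at, 110.7 and 107.5 (-0.04). The value of 1423721_at reached 0.01 with a loess curve removed, whereas 1423049_a_at stayed between -0.59 and -0.39. Both bright Tpm1 probe sets had signals over 1000, and their log2 ratios lay 0.40 apart. The SD of 0.15 for such probe sets describes their spread within a gene, and a gap between a pair spreads more widely than that. Whether the gap between these bright Tpm1 probe sets was unusual was not tested. Which splice forms each one reads was not determined. Another Tpm1 probe set was under the floor on both arrays (15.5 and 10.3).

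All 4 probe sets of Tpm2 were lower with IFNg. The brightest, 1419738_a_at, had 6207 and 5081 (-0.29), and 1425028_a_at had 2077 and 1778 (-0.22). The dimmer ones had larger differences, 1449577_x_at with 563.1 and 338.4 (-0.73) and 1419739_at with 56 and 35.9 (-0.64). The other tropomyosin genes, Tpm3 (2373 and 2408, log2 ratio 0.02) and Tpm4 (3018 and 3396, 0.17), did not share this direction. They were picked for comparison after their values were seen.

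Cald1 encodes caldesmon, which binds actin, myosin, tropomyosin and calmodulin and restrains the actomyosin ATPase, as a long smooth muscle form and a short form of other cells. Its 3 bright probe sets were all higher with IFNg. Signals were 3092 and 3872 for 1424769_s_at, a log2 ratio of 0.32. For 1424768_at they were 1219 and 1557 (0.35), and for 1424770_at 832 and 1560 (0.91, 1.87-fold higher). A dim one, 1433147_at, went from 38.7 to 170.1, a log2 ratio of 2.14 (4.39-fold higher). The last, 1433146_at, was under the floor on both arrays (1.4 and 11.1). The 4 ratios thus spanned 1.81 log2 units while keeping 1 direction under every alternative run, with 1424770_at between 0.83 and 1.06 and the dim 1433147_at as low as 0.97, a bound at the 75th-percentile floor. Whether the probe sets read different caldesmon forms was not tested.

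**Figure D2:**
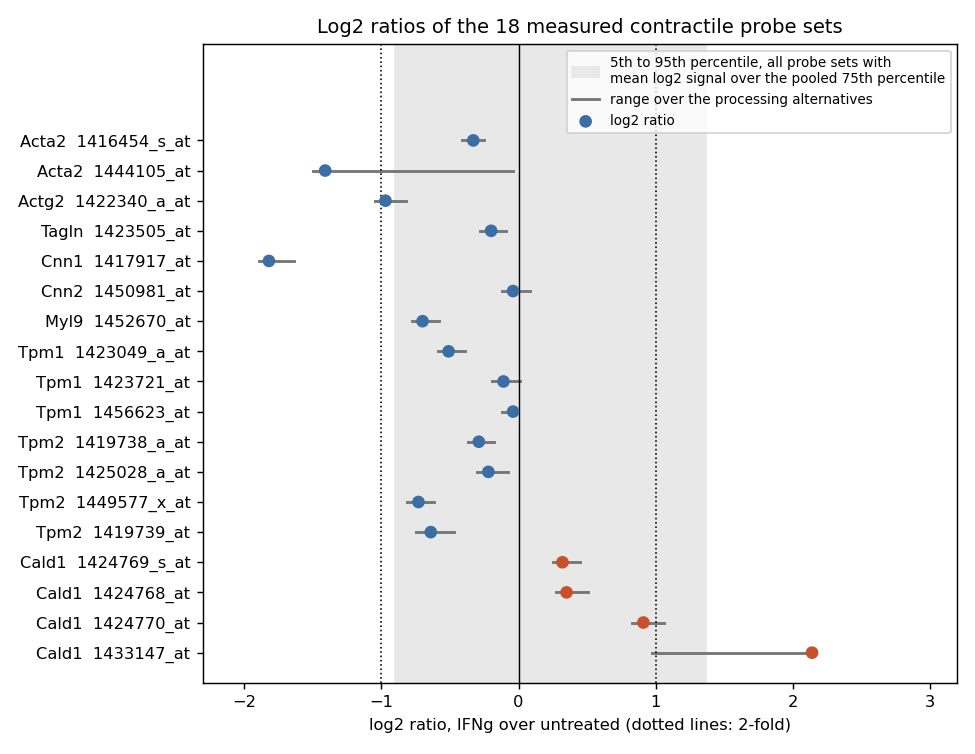
Log2 ratio (IFNg over untreated) of the 18 measured contractile probe sets, blue below 0 and red above, with a bar for the range over the processing alternatives and dotted lines at 2-fold. The grey band runs from -0.90 to 1.37, the 5th to 95th percentile of all probe sets with a mean log2 signal over the pooled 75th percentile. Cnn1 at -1.82 lies outside it throughout, and the 4 Cald1 probe sets lie to the right of 0.

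Taking the brightest probe set of each gene, 1 of 9 measured contractile genes, Cnn1, was at least 2-fold lower with IFNg (4.48% of 12743 measured genes were) and 0 were at least 2-fold higher (8.82% were). The median over the 9 genes was -0.33, against -0.12 over all genes. Of the 9, 8 were lower with IFNg, beside 57.5% of all measured genes. Over the 18 probe sets, 12 stayed below 0 and 4 above 0 under every alternative, and 2 changed sign, those of Cnn2 and Tpm1 (1423721_at).

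**Figure D3:**
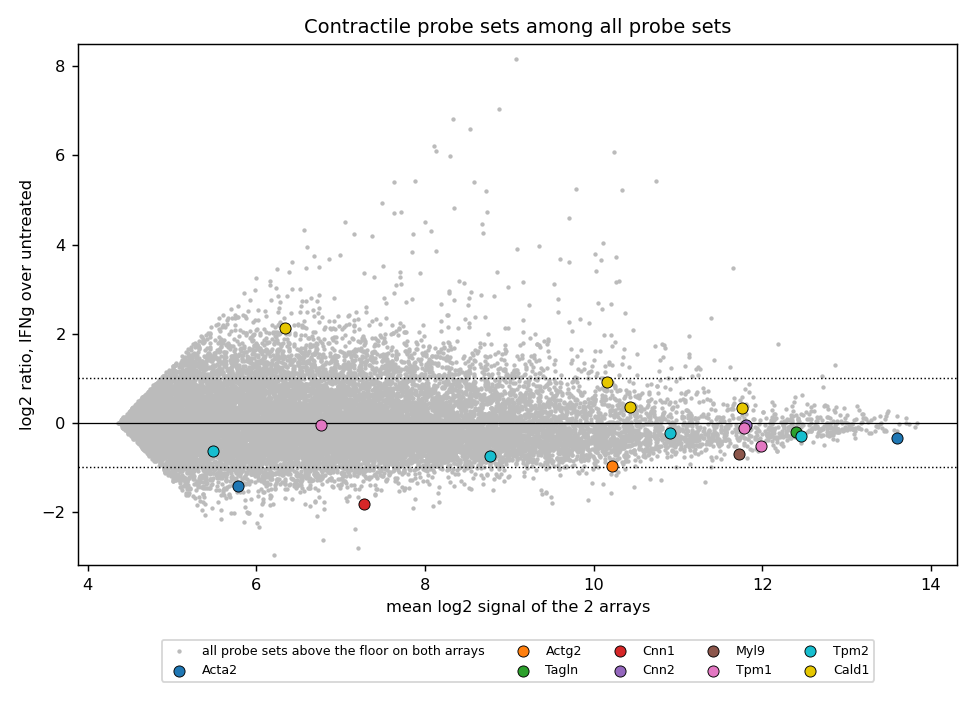
Log2 ratio (IFNg over untreated) against the mean log2 signal of the 2 arrays for all probe sets above the floor on both arrays (grey) and for the contractile genes (coloured by gene). Dotted lines mark 2-fold. The bright members lie within the narrow grey cloud, Myl9 (-0.70) towards its lower side, Cnn1 lies near the lower edge at -1.82, and Cald1 lies above 0.

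Genes of the wider actomyosin apparatus and its regulators were read from a list of 40, of which 37 were measured. By the brightest probe set of each gene, they had a median log2 ratio of -0.24, with 2 at least 2-fold lower and 2 at least 2-fold higher. Over all genes the median was -0.12, with 4.48% lower and 8.82% higher, so these counts are near or below the background. The genes past 2-fold are named below, and no shared function is read from them. Rock1, a kinase that inhibits myosin phosphatase, had 96.5 and 452.8 (log2 ratio 2.23, other probe sets from 0.72 to 2.61). Ppp1r12a, the targeting subunit of that phosphatase, had 103.2 and 406.9 (1.98, other probe sets from 1.80 to 1.97). The lower ones, Ppp1r14a and Actc1, were dimmer than these on both arrays. Ppp1r14a, the smooth muscle phosphatase inhibitor CPI-17, had 50.7 and 20.5 (-1.31), and the cardiac actin Actc1 had 63.8 and 21.3 (-1.58). Mylk, the myosin light-chain kinase, had 796.4 and 948 (0.25), and the smooth muscle genes Smtn (231.1 and 189.1, -0.29) and Lmod1 (77.6 and 47.8, -0.70) were within 2-fold. These last 3 were picked after their values were seen. By other probe sets, Lpp ran from 0.82 to 1.65 (0.82 by the brightest) and Ppp1cb from 0.59 to 1.31 (0.70 by the brightest). Lpp and Ppp1cb were likewise picked afterwards. With the probe sets of each gene averaged, 3 genes of the list were at least 2-fold higher and 2 at least 2-fold lower.

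Regulators of the contractile programme, 33 listed SRF, TGF-beta and YAP pathway genes with 31 measured, had a median of -0.10. By the brightest probe set of each gene, 0 were at least 2-fold lower and 2 at least 2-fold higher. Over all genes the median was -0.12, with 4.48% lower and 8.82% higher, so the list did not stand away from that background. Srf itself had 206.5 and 124.9 (-0.73, another probe set at -0.39), the lowest log2 ratio on this list by the brightest probe set. Myocd, the gene for myocardin, was under the floor on both arrays (0.9 and 3.2), while its relatives Mrtfa (183.8 and 134.6, -0.45) and Mrtfb (338 and 302.5, -0.16) were measured. Tgfb1, the ligand, had 506.6 and 402.3 (-0.33). Of the receptors, Tgfbr1 was higher (77 and 168.2, 1.13), and Tgfbr2 had 1883 and 1623 (-0.21, another probe set at -0.88). Foxo4, a forkhead factor that binds myocardin, was also higher (86.9 and 184.6, 1.09). The brightest genes of the list were the matricellular SRF and YAP target Ccn2 (9920 and 7797, -0.35), the LIM protein gene Fhl1 (3047 and 2333, -0.39), Ccn1 (2932 and 2047, -0.52) and the integrin gene Itgb5 (1946 and 1623, -0.26). Ccn1 had other probe sets from -0.55 to 0.65, and Fhl1 another at 0.55. Past 2-fold lower were other probe sets of Smad3 (-1.39 and -1.2, against -0.22 by the brightest) and Itgav (from -1.65 to -0.41, against 0.34). Past 2-fold higher was another of Smad2 (1.24, against 0.01). Smad3, Itgav and Smad2 were picked after their values were seen.

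Myofibroblast matrix and surface genes gave a median of -0.16 over 21 measured genes, beside -0.12 over all genes. By the brightest probe set, 0 were past 2-fold in either direction, beside 4.48% lower and 8.82% higher over all genes. With the probe sets of each gene averaged, the list's median was 0.02. The brightest were Sparc (13435 and 13399, log2 ratio 0.00), Vim (11732 and 13104, 0.16), Col3a1 (12808 and 11389, -0.17) and Col1a2 (12170 and 10653, -0.19). The ends of the list were Cthrc1, a secreted collagen-triple-helix protein of activated fibroblasts (2846 and 1433, -0.99), and Cdh11, the fibroblast cadherin (1474 and 2947, 1.00), both just short of 2-fold by the brightest probe set. Another Cdh11 probe set was at 1.38. Tnc (-0.65 by the brightest) had another at 1.77, and Fn1 (-0.16) another at 1.39. No other probe set of the list was past 2-fold lower. Tnc and Fn1 were picked after their values were seen. By the brightest probe set, Cnn1 had a log2 ratio below that of every regulator and matrix gene measured.

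**Figure D4:**
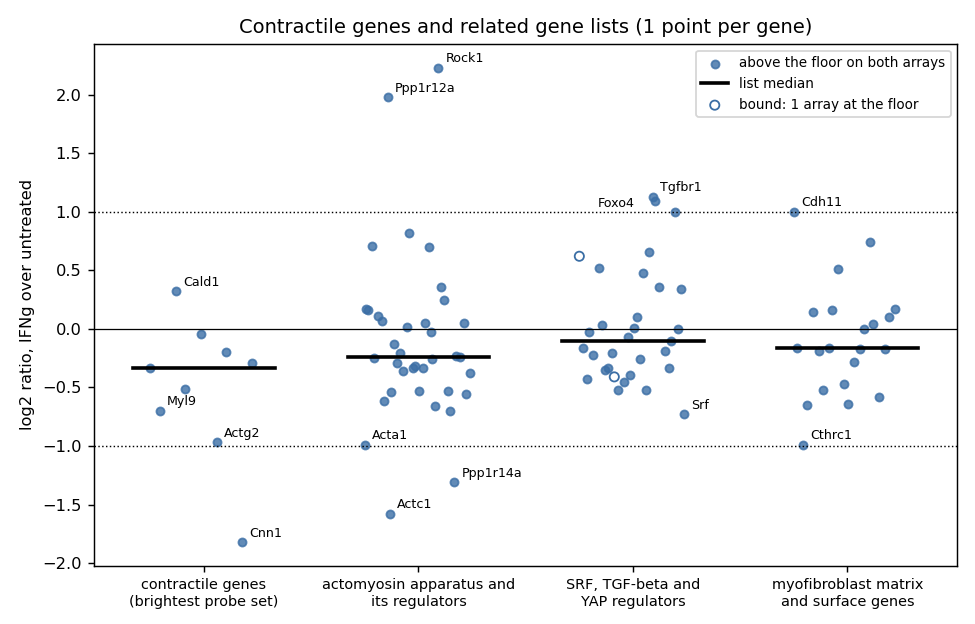
Log2 ratio (IFNg over untreated) of each measured gene, by its brightest probe set, for the contractile genes and the 3 related lists, with the list medians as bars (-0.33, -0.24, -0.10 and -0.16 from left to right) and dotted lines at 2-fold. Open circles are bounds with 1 array at the floor.

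Markers of the cells these cultures could hold were read beside the contractile genes, and their part in the differences was not tested. Of 12 RPE markers, 9 were measured, among them Otx2, Tyr, Krt8 and Krt18, and Rpe65, Best1 and Dct were under the floor on both arrays. Their summed signal was 3571 untreated and 4110 with IFNg, and Krt18 was the marker with the greatest gain in that sum (1390 and 2446, log2 ratio 0.81). Tyr had 986.1 and 605.7 (-0.70), and Ttr (-1.60, other probe sets from -1.19 to -0.55), Tyrp1 (-1.29, others from -1.45 to 0.33) and Rlbp1 (-1.06) were lower. Of 8 pericyte and vascular smooth muscle markers, 6 were measured, with summed signals of 1387 and 1545. Rgs5 gave most of that sum (967 and 1291, log2 ratio 0.42, other probe sets from -0.88 to 0.58). Cspg4 (-1.23, another probe set at -0.30) and Mcam (-1.21) were lower, Des lay next to the floor (22.1 and 22.9), and Kcnj8 and Higd1b were under it. Of 11 skeletal and cardiac muscle markers, 7 were under the floor on both arrays, Myod1 and Myog among them, and the sums were 192.6 and 193.3. The pair above the floor on both arrays was lower with IFNg, Actc1 at -1.58 and Acta1 (88.8 and 44.7) at -0.99, while Nppa (0.8 and 38.5) and Ckm (12.5 and 25.2) were above the floor only with IFNg. Macrophage markers summed to 556.4 and 340 over 7 genes. Csf1r (202.8 and 77.5) was at -1.39, with other probe sets at -0.56 and -0.28. Cd68 (139.6 and 87.6), Cd14 (117.3 and 89.8) and Adgre1 (51.3 and 44.8) were lower within 2-fold. Fcgr3 (15.4 and 30.5) was above the floor only with IFNg, Ptprc was near the floor (20.8 and 7) and Aif1 under it. Endothelial markers summed to 546.8 and 395.2 over 7 genes, and Emcn gave most of both sums (406 and 307.7). The other endothelial markers had signals of at most 37.3 (Cdh5, untreated), with Tie1 and Vwf under the floor. Of the endothelial markers, 0 were past 2-fold.

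RNA quality could be read from the control probe sets along Actb and Gapdh. The ratio of 3' to 5' signal was 1.24 untreated and 1.38 with IFNg for Actb, and 0.908 and 1.03 for Gapdh. Both were thus slightly more weighted to the 3' end on the IFNg array, and the bearing of this on the contractile ratios was not tested.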

How the data were processed

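Total RNA from 2 primary RPE cultures was amplified, biotin-labelled and hybridised to Affymetrix arrays, per the labels' protocols. The authors deposited a linear signal intensity for each probe set and array. How signals were summarised and background-corrected is not given in the sources used here. The 64 control probe sets were set aside, leaving 45037. The arrays were brought to 1 mean after trimming 2% at each end (factors 1.00008 and 0.999924), values below the pooled median were raised to it, and the log2 was used. Gene names came from the platform annotation (34945 probe sets with 1 gene, 932 with several, 9160 with none), and 4 of 150 list symbols were not matched. A gene took its brightest probe set. A count is of log2 ratios at or past 1 in size with the brighter array above the floor. Precision is limited by the number of arrays, and no test was run.

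The members and lists were chosen with earlier results of these data known. Named genes were every member, the 4 brightest genes of each related list and those past 2-fold, Srf, Myocd and Tgfb1, markers past 2-fold, and others said to be picked afterwards or named for their place in a list. Alternatives were other scalings (none, 75th percentile, quantile, loess), a lower and a higher floor (25th and 75th percentile), a pseudocount of 16, averaged probe sets, no shared-sequence probe sets, and 1.5-fold and 3-fold thresholds. The procedure was tested on simulated data, with changes larger than 2-fold set into probe sets well above the floor. That does not cover smaller changes or dim probe sets. Promoter windows are RefSeq's. The tools were matplotlib 3.10.9, statsmodels 0.14.6, scipy 1.17.1, pandas 2.3.3 and numpy 2.4.6 under Python 3.11.15.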

Additional observations from a re-analysis of the deposited data

How the results depend on the processing

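With 1 array per group no replicate could be left out and the spread between cultures is unknown. Of the 140 recomputed log2 ratios of single contractile probe sets, 138 moved by less than 0.44, the SD between probe sets of a gene. The exceptions came with the higher floor (75th percentile), which turns ratios of dim probe sets into bounds: 0.97 for Cald1 1433147_at and -0.04 for Acta2 1444105_at. Many of the 140 could not move, so their number is no measure of robustness. Leaving out factors so near 1, lowering the floor or dropping shared-sequence probe sets leaves the other measured ratios as they were. A higher floor likewise leaves probe sets above it on both arrays unchanged. Cnn1, with 82.8 on the IFNg array, lay partly under it and went from -1.82 to a bound of -1.75. The limit of 0.44 is also wider than the SD of 0.15 for probe sets with both signals over 1000. No ratio past 2-fold changed sign. At the higher floor 1 contractile probe set was at least 2-fold lower and 0 higher. With loess 2 were higher (Cald1 1424770_at joined). Over genes, 2 were at least 2-fold lower with a common 75th percentile (Actg2 joined Cnn1) and 2 without shared-sequence probe sets (Acta2 then took its dim probe set). A 1.5-fold threshold gave 6 probe sets lower, 2 higher and 3 genes lower, and a 3-fold threshold 1 probe set lower.

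The median of the contractile probe sets lay between -0.30 (75th percentile) and -0.13 (loess) and below that of all probe sets under each alternative. In the related lists, the actomyosin genes at least 2-fold lower numbered 0 with the 75th-percentile floor, 1 with the pseudocount, 6 at 1.5-fold (5 higher) and 0 at 3-fold. The regulators at least 2-fold higher numbered 1 with that floor, 1 with the pseudocount, 5 at 1.5-fold (1 lower) and 0 at 3-fold. Of the matrix genes, 1 was lower with a common 75th percentile, 1 higher with quantile, with loess and with averaged probe sets, and at 1.5-fold 3 were lower and 2 higher. Their median turned from -0.16 to 0.02 with averaged probe sets. Over all probe sets, 5317 were lower and 6834 higher under the 25th-percentile floor, 265 and 944 under the 75th-percentile one, and 1143 and 2495 as reported. Signals near the floor limit the dim members most.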
